A study of Mus musculus with 8 samples.

Results

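The genes described here are 39 acinar-cell genes of the exocrine pancreas, measured in isolated pancreatic islets: 29 digestive enzyme and secretory granule genes, 6 Reg genes and 4 transcription factor genes of acinar cells. They were taken by symbol from the 35596 gene IDs of the deposited abundance table, and each symbol matched 1 ID. Islets are the endocrine cell clusters of the pancreas, and polyadenylated RNA from islets of male mice of the inbred strain C57BL/6J was sequenced. Obese animals (4 libraries) had eaten a 10% fat diet for 9 weeks followed by 18 weeks on 60% fat. Weight-cycled animals (4 libraries) had eaten 60% fat for 9 weeks, 10% fat for the next 9 and 60% fat for another 9 weeks. The last unbroken period on the 60% fat diet therefore differed as well (18 against 9 weeks), and the series holds no group that tells this apart from the cycling itself. Whether the libraries are separate animals is not stated in the labels, so p-values reflect only how these libraries vary, which may be technical variation.

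Acinar cells make up most of the pancreas and surround the islets. They synthesise digestive enzymes, most of them as inactive zymogens, pack them into granules and release them into the duct. Reg genes encode small secreted lectin-like proteins that acinar cells, and under stress islet cells, are known to produce, and whose transcription is known to rise with inflammation and regeneration. Islets are freed by digesting the pancreas with collagenase and, in this series, were picked by hand, so some acinar RNA normally stays with them.

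Expression was given as TPM, a relative abundance scaled by transcript length and by the library's total. Levels in TPM can be compared between genes, but each depends on all other genes of the library, and the sequencing depth behind them is unknown. Of all TPM, 76.9% to 78.4% in obese and 75.4% to 78.8% in weight-cycled libraries belonged to Ins1 and Ins2, the insulin genes that define beta cells. Over all 8127 genes with a mean of at least 1 TPM, limma on log2(TPM + 1) placed 98 genes (1.21%) higher and 1946 (23.9%) lower in weight-cycled than in obese islets at an adjusted p under 0.05, 25.2% of those tested in all, with a median log2 fold change of -0.26. Weight-cycled replicate 1 lay with the obese libraries on the first principal component (66.8% of variance), at -7.98, against -23.3 to -5.03 in obese and 13.8 to 30.6 in the other weight-cycled libraries. The same library also differed from its group in the rank correlation of the genes' deviations with transcript length (0.345, against -0.400 to -0.283), so results are also given without it.

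The share of RNA held by enzyme transcripts overlapped between the groups, with 1 library far above the rest. The 29 enzyme and granule genes summed to 0.568%, 0.686%, 0.368% and 0.565% of TPM in obese replicates 1 to 4, and to 1.09%, 0.543%, 0.463% and 0.509% in weight-cycled replicates 1 to 4. The means were 0.547% ± 0.132 and 0.651% ± 0.294 (SD, n = 4 each), and the groups overlapped. Weight-cycled replicate 1 was the highest of the 8 libraries and obese replicate 3 the lowest, 2.96-fold apart. The mean log2 sum was 0.20 higher in weight-cycled libraries, and the difference was -0.08 when weight-cycled replicate 1 was left out. In bulk RNA, fewer acinar cells and less enzyme RNA per cell cannot be told apart.

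Reg transcripts were far less abundant than enzyme transcripts. The 6 Reg genes summed to 177, 92.1, 79.6 and 103 TPM in obese replicates 1 to 4 and to 347, 222, 130 and 93.4 TPM in weight-cycled replicates 1 to 4. Means were 113 ± 43.9 and 198 ± 113 TPM (SD, n = 4 each), and the groups overlapped, with weight-cycled replicate 4 below obese replicates 1 and 4. Set against the enzymes of the same library, there were 3.13, 1.34, 2.17 and 1.83 TPM of Reg per 100 TPM of enzymes in obese and 3.18, 4.10, 2.81 and 1.84 in weight-cycled libraries. The mean log2 ratio was 0.50 higher in weight-cycled libraries, and between 0.31 and 0.72 higher when any 1 library was left out. Obese replicate 1 was as rich in Reg relative to enzymes as weight-cycled replicate 1.

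**Figure D1:**
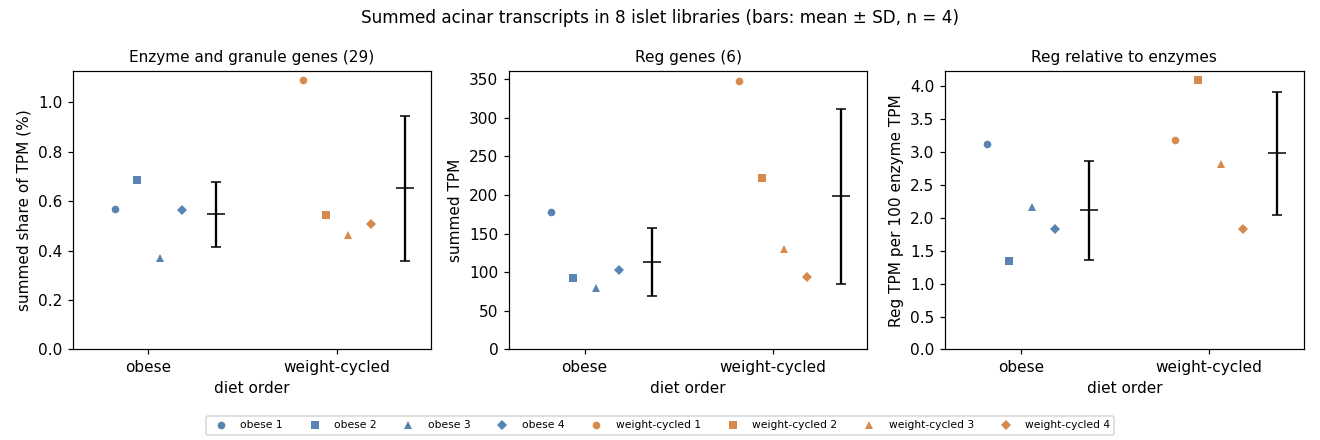
Summed TPM of the enzyme and granule genes (left, % of all TPM), of the Reg genes (centre, TPM) and of Reg per 100 TPM of enzymes (right) in each of the 8 libraries, with black bars for mean ± SD (n = 4 per group). Weight-cycled replicate 1 stands at 1.09% in the left panel, above 0.686%, the next highest library, and the groups overlap in all 3 panels.

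With all 8 libraries, no member passed the test in either direction. Of the 39 members, 31 had a mean of at least 1 TPM and were tested (26 enzyme and granule genes, 4 Reg genes and Bhlha15). None was called higher and none lower, against 25.2% of all tested genes called, and 3 of the 31 had an unadjusted p under 0.05 (limma, two-sided), against 49.1% of all tested genes. The smallest adjusted p among members was 0.0582, for Reg3b. Log2 fold changes were above 0 for 24 of the 31 members, against 14.5% of all tested genes. The median was 0.15 over the 26 enzyme genes and 0.92 over the 4 Reg genes, beside -0.26 over all genes tested. No member had groups that did not overlap in TPM, while 22.4% of all tested genes did.

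That count depended on weight-cycled replicate 1. Without it, 58% of all tested genes were called, and among the members Reg3b was higher (log2 fold change 1.20, adjusted p = 0.0373), while Sycn (-0.70, adjusted p = 0.00603) and Klk1 (-0.56, adjusted p = 0.0300) were lower by limma. The median over the 26 enzyme genes then was -0.14, with 11 of 26 above 0, against 15% of all tested genes. With median-of-ratios scaling, which moved the median of all tested genes to -0.00904 and left 1.81% of them called, all 31 members were above 0, against 48.4% of all tested genes, the enzyme median was 0.48, and Ctrc alone was called (0.55, adjusted p = 0.0478, limma).

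**Figure D2:**
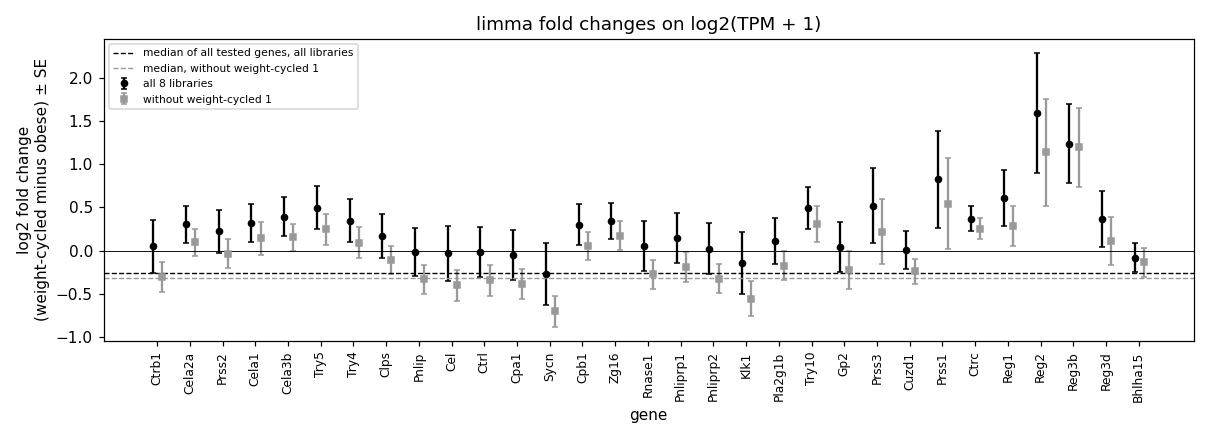
Log2 fold change (weight-cycled minus obese) ± SE of the 31 tested members by limma, with all 8 libraries (black) and without weight-cycled replicate 1 (grey), and dashed lines at the median over all genes tested. Reg2 and Reg3b have the largest values with all libraries (1.60 and 1.24), and leaving out that library moves most enzyme genes down, Sycn to -0.70.

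Serine proteases formed the largest class of the enzymes, and Ctrb1, which encodes chymotrypsinogen B, had the largest mean TPM of the members, although Cela2a was above it in weight-cycled replicates 2, 3 and 4. Ctrb1 (ENSMUSG00000031957.6, chr8:111686519-111691010, minus strand, build mm10) was at 961, 1191, 621 and 923 TPM in obese and 1970, 805, 665 and 717 TPM in weight-cycled replicates 1 to 4. Its level in weight-cycled replicate 1 was above every other library and the remaining 3 weight-cycled values lay within the obese range. The log2 fold change was 0.05 (SE 0.306, adjusted p = 0.898, limma). Ctrl, a chymotrypsin-like protease, was at 221, 262, 133 and 212 TPM in obese and 391, 172, 140 and 163 TPM in weight-cycled libraries. Ctrc, chymotrypsin C, which is known to cleave and control trypsin, was low, between 0.703 and 1.37 TPM in obese and between 1.31 and 2.38 TPM in weight-cycled libraries. Its log2 fold change was 0.37 (SE 0.147, adjusted p = 0.0719, limma), and its annotated locus overlaps that of Cela2a, with 19.2% of its 31-base words in common.

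The elastases are serine proteases, and 3 of the 4 were abundant. Cela2a (chr4:141814962-141826160, minus strand) was at 795, 843, 498 and 795 TPM in obese and 1357, 808, 728 and 769 TPM in weight-cycled replicates 1 to 4. Cela1 was at 379, 458, 232 and 413 TPM in obese and 642, 345, 385 and 469 TPM in weight-cycled libraries. Cela3b was at 348, 392, 235 and 375 TPM in obese and 710, 416, 321 and 376 TPM in weight-cycled libraries. In all 3 genes weight-cycled replicate 1 was the highest and obese replicate 3 the lowest library. Cela3a, which shares 45.8% of its 31-base words with Cela3b, had a mean of 0.03 TPM and was not tested. Log2 fold changes of the other 3 lay between 0.30 and 0.39 (adjusted p from 0.178 to 0.258, limma). Without weight-cycled replicate 1 they were 0.14 for Cela1, 0.0973 for Cela2a and 0.16 for Cela3b, and without obese replicate 3 they were 0.11, 0.13 and 0.23.

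The trypsinogens lie in a cluster on chromosome 6 between 41302269 and 41525079 (mm10) and are near copies of each other. Prss2, the most abundant, was at 659, 762, 417 and 656 TPM in obese and 1230, 684, 547 and 557 TPM in weight-cycled replicates 1 to 4. Try4 was at 259, 422, 225 and 292 TPM in obese and 629, 367, 275 and 297 TPM in weight-cycled libraries. Try5 was at 273, 386, 198 and 293 TPM in obese and 659, 406, 302 and 300 TPM in weight-cycled libraries. Try5 stood highest of these against the obese level, with a log2 fold change of 0.50 (SE 0.248, adjusted p = 0.127, limma; 0.25 without weight-cycled replicate 1), and weight-cycled replicates 1 and 2 were above all obese libraries. Of the 31-base words in annotated transcripts, Try4 shared 82.7%, Prss3 75.4%, Prss1 69.3%, Try5 59.7%, Try10 58.6% and Prss2 22.5% with other genes, so the split of reads among them is an estimate. Try10 was between 2.25 and 9.60 TPM and Prss3 between 1.03 and 8.26 TPM over the 8 libraries. Prss1 was listed at 0 in obese replicate 1 and reached 6.85 TPM in weight-cycled replicate 2.

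Carboxypeptidases trim amino acids from the end of peptides. Cpa1 was at 187, 244, 122 and 178 TPM in obese and 347, 131, 129 and 149 TPM in weight-cycled replicates 1 to 4. Cpb1 was at 122, 140, 75.3 and 114 TPM in obese and 228, 123, 107 and 113 TPM in weight-cycled libraries. Outside weight-cycled replicate 1, both genes stayed within the obese range in every weight-cycled library.

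Lipid-digesting proteins were likewise highest in weight-cycled replicate 1. Pnlip, pancreatic triglyceride lipase, was at 359, 412, 219 and 329 TPM in obese and 619, 246, 241 and 279 TPM in weight-cycled replicates 1 to 4. Clps, the colipase that anchors it to fat droplets, was at 344, 392, 209 and 332 TPM in obese and 619, 297, 269 and 300 TPM in weight-cycled libraries. Cel, the bile salt-activated lipase, was at 244, 320, 161 and 241 TPM in obese and 497, 190, 147 and 199 TPM in weight-cycled libraries. In all 3 the other weight-cycled values were below the obese mean, and the lowest library was obese replicate 3 for Pnlip and Clps and weight-cycled replicate 3 for Cel. The lipase-related gene Pnliprp1, next to Pnlip on chromosome 19, was at 83.5, 121, 60.9 and 95.4 TPM in obese and 195, 82.0, 72.5 and 75.5 TPM in weight-cycled libraries. Pnliprp2 in the same cluster was between 8.77 and 17.8 TPM in obese and between 9.53 and 28.7 TPM in weight-cycled libraries. Pla2g1b, pancreatic phospholipase A2, was between 5.76 and 17.9 TPM over the 8 libraries.

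Among the remaining secreted proteins, syncollin stood apart. Sycn (ENSMUSG00000084174.3, chr7:28540885-28542209, plus strand), which encodes this protein of the zymogen granule membrane, was at 179, 222, 110 and 154 TPM in obese and 330, 92.2, 89.5 and 116 TPM in weight-cycled replicates 1 to 4. Weight-cycled replicates 2 and 3 were below all obese libraries and weight-cycled replicate 1 above all of them, so the log2 fold change over all libraries was -0.27 (SE 0.356, adjusted p = 0.543, limma). Klk1, tissue kallikrein, was at 12.2, 12.5, 5.84 and 7.70 TPM in obese and 20.7, 6.94, 5.20 and 5.66 TPM in weight-cycled libraries. Without weight-cycled replicate 1, its other weight-cycled values were all below 3 of the 4 obese values, and 40.5% of its words are shared with other kallikrein genes and copies. Zg16, a lectin of the zymogen granule, was at 105, 112, 61.7 and 106 TPM in obese and 170, 115, 104 and 98.4 TPM in weight-cycled libraries. Rnase1, the secreted pancreatic ribonuclease, was at 106, 124, 68.1 and 93.2 TPM in obese and 198, 92.1, 73.9 and 71.6 TPM in weight-cycled libraries. Gp2, the major granule membrane glycoprotein, and Cuzd1 reached 8.17 and 4.96 TPM at most.

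Amylase, the starch-digesting enzyme, was nearly absent from the listed members but not from the libraries. Amy1, the salivary-type gene, was between 0.130 and 0.322 TPM and Amy2b, annotated as an unprocessed pseudogene in GENCODE M21, between 0.113 and 0.561 TPM. The pancreatic genes Amy2a1, Amy2a4 and Amy2a5, added after the values were seen because the amylase members were so low, were at 134 to 424, 106 to 300 and 66.5 to 226 TPM over the 8 libraries. Their log2 fold changes lay between -0.04 and 0.00177 (adjusted p from 0.907 to 0.997, limma). An unlisted trypsinogen added in the same way, 2210010C04Rik, was at 77.1 to 146 TPM in obese and 105 to 221 TPM in weight-cycled libraries. Another, 1810009J06Rik, was at 0.0238, 0.0920, 0.111 and 0.856 TPM in obese and 5.38, 1.94, 1.19 and 0.818 TPM in weight-cycled libraries. It was called higher in weight-cycled islets (log2 fold change 1.25, adjusted p = 0.0345, limma). Of 5 trypsin genes added, 4 were tested and only this 1 was called, beside 1.21% of all tested genes called higher. Gm5771 and Gm10334 were not called (1.08 and 0.27, adjusted p = 0.128 and 0.663, limma), and Gm2663, with a mean below 1 TPM, was not tested. 1810009J06Rik did not pass the threshold, at fold changes no smaller, with median-of-ratios scaling (1.36, adjusted p = 0.0592, limma). The same held with rescaling without insulin and the members (2.35, adjusted p = 0.0592) and with the length trend removed (1.40, adjusted p = 0.0554). Nor was it called when any library but obese replicate 4 and weight-cycled replicate 1 was left out. In each of those leave-out fits at most 22 of all 8127 tested genes were called higher and at most 49 lower.

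**Figure D3:**
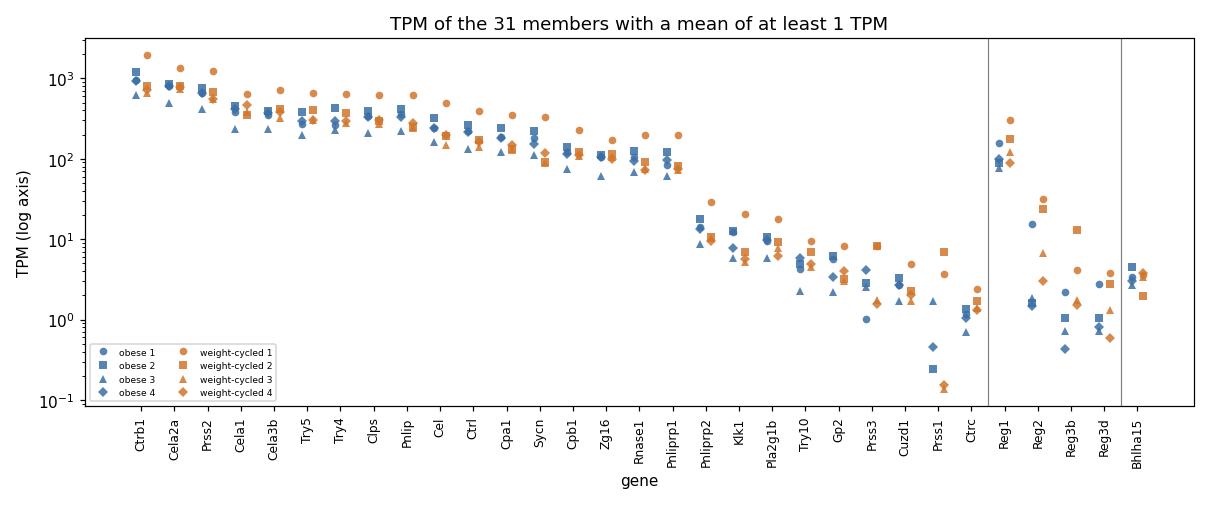
TPM (log axis) of the 31 members with a mean of at least 1 TPM in each obese (blue) and weight-cycled (orange) library, with grey lines between enzyme genes, Reg genes and Bhlha15; obese replicate 1 of Prss1, listed at 0, is not drawn. Weight-cycled replicate 1 (orange circle) is the highest library for 25 of the 26 enzyme genes, and obese replicate 3 (blue triangle) the lowest for 21.

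Across the libraries the enzyme genes varied together. Of the 17 enzyme genes with a mean of at least 50 TPM, 17 were highest in weight-cycled replicate 1 and 15 lowest in obese replicate 3. The ratio of the highest to the lowest library ran from 2.73 to 3.68 with a median of 2.95. The coefficient of variation over the 8 libraries had a median of 38.8% (27.2% to 50.7%) for TPM and 9.62% (3.10% to 22.3%) for a gene's share of its library's enzyme sum, and was lower for the share in all 17 genes. Each gene is itself part of that sum, and Ctrb1 alone held 14.1% to 18.1% of it. The lower variation of the shares is therefore in part built in, and the same comparison was not made for other genes. Colipase was the steadiest, with a share between 5.47% and 6.06% in every library. The 3 most abundant enzyme genes of a library held 40.2% to 42.6% of the enzyme sum and the 10 most abundant 81.3% to 84.1%.

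Within that pool the make-up of the enzymes differed by small amounts. Try5 took 4.81% to 5.63% of the enzyme sum in obese and 5.91% to 7.47% in weight-cycled libraries. Pnlip took 5.82% to 6.33% in obese and 4.53% to 5.68% in weight-cycled libraries, and Ctrl 3.62% to 3.89% and 3.01% to 3.59%. For these 3 of the 17 genes the shares of the groups did not overlap, beside 21.7% of all tested genes when every gene was divided by the same enzyme sum, so the count is near that background. Among the 17, Sycn varied most, with 2.72% to 3.23% in obese libraries and 3.03%, 1.70%, 1.93% and 2.29% in weight-cycled replicates 1 to 4. Serine proteases as a class held 69.4% ± 0.725 of the sum in obese and 72.2% ± 1.81 in weight-cycled libraries (SD, n = 4 each), and lipases with colipase 18.3% ± 0.290 and 16.7% ± 1.19. Both pairs of ranges overlapped through weight-cycled replicate 1, at 69.9% and 18.1%. The weight-cycled libraries other than replicate 1 were also those with a negative correlation between deviation and transcript length, and its part in these shares was not tested.

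**Figure D4:**
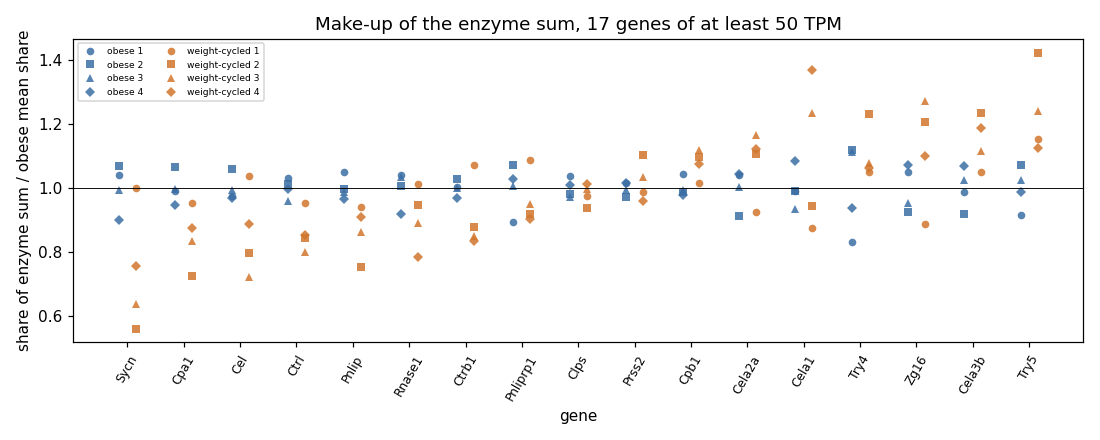
Share of the library's enzyme sum held by each of the 17 enzyme genes of at least 50 TPM, divided by the mean share in obese libraries, so that the line at 1 is the obese mean. The groups are apart for Ctrl, Pnlip and Try5, and the lowest and the highest points are Sycn and Try5 of weight-cycled replicate 2.

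Since the enzyme genes moved together, the promoter windows of a few of them are shown. Ctrb1, Prss2 and Cel are abundant enzymes whose windows hold matches to both elements named next, whatever the spacing between the matches. Sycn is the gene whose share varied most among the 17 of at least 50 TPM, and Reg2 the Reg gene with the largest fold change. Acinar enzyme genes are classically bound by the PTF1 complex, of which Ptf1a and Rbpjl are subunits, at a pair of elements, an E-box (CANCTG) and a TC-box (TTTCCCA). STAT factors, which act downstream of cytokine receptors on Reg genes, recognise TTCNNNGAA. Each window holds the 250 bases before the start site in RefSeq on build GRCm38.p6, is written 5′ to 3′ along the gene, and has matches on either strand in capitals.
Ctrb1 (chr8:111691011-111691260, minus strand): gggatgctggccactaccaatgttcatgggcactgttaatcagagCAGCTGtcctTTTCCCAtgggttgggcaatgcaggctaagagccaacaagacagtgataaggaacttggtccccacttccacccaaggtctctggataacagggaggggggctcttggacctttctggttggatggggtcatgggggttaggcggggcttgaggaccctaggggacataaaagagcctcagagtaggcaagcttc
Prss2 (chr6:41521526-41521775, plus strand): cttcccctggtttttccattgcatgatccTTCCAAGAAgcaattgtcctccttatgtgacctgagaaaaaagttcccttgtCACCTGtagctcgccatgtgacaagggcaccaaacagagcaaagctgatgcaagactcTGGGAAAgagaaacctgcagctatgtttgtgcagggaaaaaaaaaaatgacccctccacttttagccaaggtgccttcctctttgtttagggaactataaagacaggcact
Cel (chr2:28563404-28563653, minus strand): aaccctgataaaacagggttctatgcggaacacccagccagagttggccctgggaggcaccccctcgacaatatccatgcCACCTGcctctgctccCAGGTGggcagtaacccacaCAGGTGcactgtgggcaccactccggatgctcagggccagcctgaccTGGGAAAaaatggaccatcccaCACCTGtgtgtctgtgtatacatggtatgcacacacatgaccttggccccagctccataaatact
Sycn (chr7:28540635-28540884, plus strand): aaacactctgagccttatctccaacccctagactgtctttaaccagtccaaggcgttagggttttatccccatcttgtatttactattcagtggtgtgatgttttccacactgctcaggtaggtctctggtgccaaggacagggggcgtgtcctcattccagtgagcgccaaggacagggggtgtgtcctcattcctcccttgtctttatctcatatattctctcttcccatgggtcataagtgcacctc
Reg2 (chr6:78404905-78405154, plus strand): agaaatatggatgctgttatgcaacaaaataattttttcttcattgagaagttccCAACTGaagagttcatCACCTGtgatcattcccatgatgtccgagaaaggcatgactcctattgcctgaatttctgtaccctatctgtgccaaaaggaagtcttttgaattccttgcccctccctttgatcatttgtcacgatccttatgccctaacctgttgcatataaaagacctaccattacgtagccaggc
In the Ctrb1 window CANCTG begins at -205 and TTTCCCA at -195, counted back from the start site. In the Prss2 window CANCTG begins at -169, TTTCCCA at -111 and TTCNNNGAA at -221. The Cel window holds CANCTG 4 times, the first at -170, -154 and -134, and TTTCCCA once, at -87. The Reg2 window has CANCTG at -195 and -179, and the Sycn window has none of the 3 motifs.

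Windows were found for 34 of the 39 members, and matches of different motifs may overlap. TTTCCCA was present in 6 of 24 enzyme genes and in 6.81% of all 32841 windows. CANCTG, a short motif, was present in 18 of 24 enzyme genes and in 44.8% of windows. Both were present, at any spacing, in 5 of 24 enzyme genes (Ctrb1, Prss2, Cel, Cela2a and Cela3a) and in 3.12% of windows. The printed windows of Ctrb1, Prss2 and Cel are therefore not typical of the enzyme genes. Cela1, Cela3b, Try4 and Pnlip, all with a larger mean TPM than Cel, held no TTTCCCA. Of the 6 Reg genes, 3 held TTTCCCA, 5 CANCTG and 2 TTCNNNGAA, the last in 7.02% of all windows. These matches describe the letters in the windows only.

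The Reg genes form a cluster on chromosome 6 between 78370657 and 78468872 (mm10), and Reg1 supplied most of their RNA. Reg1 (ENSMUSG00000059654.7, chr6:78422711-78428667, plus strand) was at 155, 87.9, 76.0 and 100 TPM in obese and 305, 178, 120 and 87.6 TPM in weight-cycled replicates 1 to 4. The highest library was again weight-cycled replicate 1, but weight-cycled replicate 2 was also above all obese libraries, which was not so for Ctrb1. The log2 fold change was 0.61 (SE 0.325, adjusted p = 0.148, limma), and 0.28 without weight-cycled replicate 1. Reg1 made up 87.4% to 97.1% of the Reg sum in obese and 79.9% to 93.9% in weight-cycled libraries.

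Reg2 had the largest fold change of all 31 tested members and a large spread in both groups. Reg2 (ENSMUSG00000023140.4, chr6:78395623-78408106, plus strand) was at 15.5, 1.60, 1.87 and 1.48 TPM in obese and 31.8, 23.6, 6.83 and 3.05 TPM in weight-cycled replicates 1 to 4. All 4 weight-cycled libraries were above obese replicates 2, 3 and 4, whereas obese replicate 1 was above weight-cycled replicates 3 and 4. The log2 fold change was 1.60 (SE 0.696, adjusted p = 0.0901, limma), and without obese replicate 1 it was 2.26 (adjusted p = 0.108). In that leave-out fit 0 of all 8127 tested genes were called higher and 0 lower. Per 100 TPM of Reg1 there were 10.0, 1.82, 2.46 and 1.48 TPM of Reg2 in obese and 10.4, 13.3, 5.70 and 3.48 in weight-cycled libraries. Over the 8 libraries of both groups the highest was 21.5-fold above the lowest for Reg2 and 4.01-fold for Reg1.

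Reg3 proteins include bactericidal lectins of the gut and pancreas. Reg3b (ENSMUSG00000071356.7, chr6:78370657-78373466, plus strand) was at 2.22, 1.06, 0.725 and 0.429 TPM in obese and 4.20, 13.0, 1.75 and 1.53 TPM in weight-cycled replicates 1 to 4. Only obese replicate 1 reached into the weight-cycled range. The log2 fold change was 1.24 (SE 0.454, adjusted p = 0.0582, limma), falling to 0.72 (adjusted p = 0.126) without weight-cycled replicate 2, the library with 13.0 TPM. In that leave-out fit 11 of all 8127 tested genes were called higher and 29 lower. Reg3d was at 2.81, 1.04, 0.726 and 0.811 TPM in obese and 3.82, 2.76, 1.31 and 0.598 TPM in weight-cycled libraries, a log2 fold change of 0.37 (SE 0.330, adjusted p = 0.373, limma; 0.11 without weight-cycled replicate 1). Its weight-cycled range enclosed the obese range. Reg3g was at 0.568, 0.341, 0.171 and 0.121 TPM in obese and 1.59, 2.27, 0.452 and 0.427 TPM in weight-cycled libraries, and Reg3a at 1.13, 0.0738, 0.155 and 0.141 TPM against 0.691, 2.95, 0.131 and 0.111 TPM. Both had means below 1 TPM and were not tested.

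The Reg sum and Reg1 had the same highest and lowest libraries as the enzyme sum, weight-cycled replicate 1 and obese replicate 3. The other Reg genes did not follow the enzyme pool library by library. Of all 6 Reg genes, 3 were highest in weight-cycled replicate 1. The other 3 were highest in weight-cycled replicate 2, whose enzyme sum (0.543%) was close to the obese mean. In obese replicate 1, Reg2, Reg3a and Reg3d were above the other obese libraries by a wide margin, with an enzyme sum of 0.568%. Without Reg1, the other 5 Reg genes summed to 22.3, 4.11, 3.65 and 2.98 TPM in obese and 42.1, 44.6, 10.5 and 5.72 TPM in weight-cycled libraries. With Reg1 and Ctrb1 left out, the mean log2 ratio of Reg to enzymes was 1.48 higher in weight-cycled libraries, against 0.50 with both kept. With the log2 enzyme sum as a covariate, a fit added after the data were seen, Reg3b was called higher (1.16, adjusted p = 0.0345), beside 53.2% of all tested genes called, and Reg2 was not (1.34, adjusted p = 0.0697, limma). Words of 31 bases shared with other genes made up 5.7% of Reg1, 7.7% of Reg2 and at most 0.4% of Reg3a, Reg3b, Reg3d and Reg3g.

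**Figure D5:**
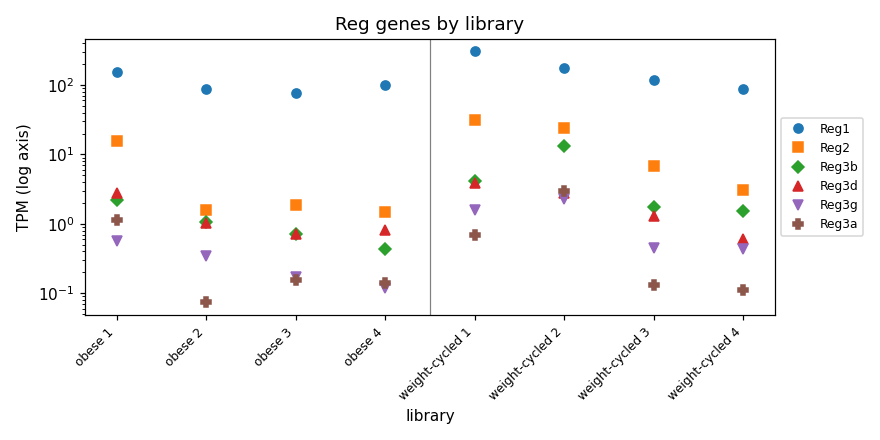
TPM (log axis) of the 6 Reg genes in each library, obese left and weight-cycled right of the grey line. Reg1 lies between 76.0 and 305 TPM, and the highest library is 21.5-fold above the lowest for Reg2, 30.3-fold for Reg3b and 40.0-fold for Reg3a.

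The transcription factors that keep acinar identity were low, and 3 of the 4 were near 0. Bhlha15, also called Mist1, which organises the secretory apparatus, was at 3.36, 4.56, 2.73 and 2.98 TPM in obese and 3.57, 1.99, 3.39 and 3.78 TPM in weight-cycled replicates 1 to 4. Its order of libraries was not that of the enzymes, since weight-cycled replicate 1 was the third highest. The log2 fold change was -0.08 (SE 0.169, adjusted p = 0.699, limma). Rbpjl, a subunit of PTF1, was at 0.0851, 0.175, 0.0316 and 0.0490 TPM in obese and 0.331, 0.101, 0.0342 and 0.0716 TPM in weight-cycled libraries. Ptf1a, its partner, was at 0.0806, 0.0546, 0.00791 and 0.0358 TPM in obese and 0.0349, 0.0563, 0.0450 and 0.0587 TPM in weight-cycled libraries. Nr5a2, a nuclear receptor of acinar cells, was at 0.0350, 0.0546, 0.0254 and 0.0321 TPM against 0.0361, 0.101, 0.0188 and 0.0866 TPM. Rbpjl, Ptf1a and Nr5a2 had means below 1 TPM. Without that filter 39 members were tested by limma and 0 were called, with 2 at an unadjusted p under 0.05, but of all 19482 genes in that fit 0 were called as well, with 5686 at an unadjusted p under 0.05.

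Other genes of acinar cells made up a list of 26. Of these, 15 were tested, 1 was called higher and 1 lower, and the median log2 fold change was 0.04, beside 1.21% higher, 23.9% lower and a median of -0.26 over all tested genes. Without weight-cycled replicate 1, 1 was called higher and 5 lower (Chrm3, Xbp1 and Nupr1 and, named after their values were seen, Dmbt1 and Foxp4), beside 58% of all tested genes called. Tmed6, a cargo receptor of the secretory pathway, rose: it was at 16.1, 20.8, 16.6 and 16.9 TPM in obese and 25.2, 28.3, 21.5 and 29.8 TPM in weight-cycled libraries, with groups that did not overlap (log2 fold change 0.54, SE 0.119, adjusted p = 0.0304, limma). It stayed past the threshold with median-of-ratios scaling (0.86, adjusted p = 0.0385), with rescaling without insulin and the members (0.58, adjusted p = 0.0427), with the length trend removed (0.69, adjusted p = 0.0246) and without weight-cycled replicate 1 (0.56, adjusted p = 0.00289). No gene of this list was called when obese replicate 1, 2 or 3 or weight-cycled replicate 2 or 4 was left out. In each of those fits at most 19 of all 8127 tested genes were called higher and at most 29 lower. Tff2, a trefoil peptide, ran from 9.90 to 20.3 TPM in obese and from 18.0 to 31.4 TPM in weight-cycled libraries (0.47, adjusted p = 0.0930, limma). Xbp1 and Nupr1, factors of the unfolded protein and stress responses, and Rab3d, a granule GTPase, had log2 fold changes of -0.18, -0.15 and 0.02 (adjusted p from 0.156 to 0.915). The gene called lower was Chrm3, the muscarinic receptor that triggers enzyme secretion, named after its values were seen (-0.48, adjusted p = 0.0467, limma). It was not called with median-of-ratios scaling (adjusted p = 0.131). Neither Chrm3 nor Tmed6 had the highest and lowest libraries of the enzyme sum. Chrm3 was highest in obese replicate 2 and lowest in weight-cycled replicate 2. Tmed6 was highest in weight-cycled replicate 4 and lowest in obese replicate 1. Which cells of the islet samples held their RNA was not tested.

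Genes of the cytokine path known to act upstream of Reg transcription were in part lower in weight-cycled islets. They were part of a list of 13 that also held Reg4, a Reg gene that is not a member, and Extl3, neither of them in that path. Of the 13, 7 were tested and 4 were lower, with none higher and a median of -0.43, beside 23.9% of all tested genes called lower. Extl3, named after its values were seen, was among the 7 and was not called (-0.39, adjusted p = 0.103, limma). Stat3, the transcription factor that cytokine receptors of the Il6 family activate, fell from 3.61 to 4.53 TPM in obese to 1.20 to 2.91 TPM in weight-cycled libraries (log2 fold change -0.81, adjusted p = 0.0270, limma). The kinase gene Jak1 was at 3.86 to 5.44 TPM in obese and 1.59 to 3.72 TPM in weight-cycled libraries (-0.78, adjusted p = 0.0307). Il6st, the shared receptor subunit gp130, and Il10rb were also lower (-0.43 and -0.32, adjusted p = 0.0367 and 0.0491). Il6ra and Lifr had log2 fold changes of -0.45 and -0.18 (adjusted p = 0.114 and 0.398). With median-of-ratios scaling Stat3 alone stayed lower (-0.58, adjusted p = 0.0469), with the length trend removed Stat3 and Jak1 did, and with rescaling without insulin and the members none did, with Stat3 at -1.02 (adjusted p = 0.0543) and Jak1 at -0.95 (adjusted p = 0.0592). None was called either when obese replicate 1, 2 or 3 or weight-cycled replicate 2, 3 or 4 was left out. In each of those fits at most 22 of all 8127 tested genes were called higher and at most 49 lower.

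Duct cells share the exocrine tissue and can come along with acinar cells. In a list of 16 duct genes the summed TPM ran from 188 to 230 in obese and from 179 to 240 in weight-cycled libraries. Weight-cycled replicate 1 was the highest, and obese replicate 2 came next. Tff2 is in this list and in the list of other acinar genes. It was at 31.4 TPM in weight-cycled replicate 1 and 20.3 TPM in obese replicate 2, so the top rank of weight-cycled replicate 1 rests on that shared gene. The defining duct genes Krt19, Sox9 and Cftr were at no more than 0.324, 0.0359 and 0.0110 TPM in any library. Of 11 tested, 4 were lower and none higher, with a median log2 fold change of -0.13, beside 23.9% lower, 1.21% higher and a median of -0.26 over all tested genes. Those were Krt7 and Epcam and, named after their values were seen, Cldn4 and Cldn7 (log2 fold changes from -0.52 to -0.42, adjusted p from 0.0316 to 0.0382, limma), all of them genes of epithelial cells that islets express too. None of the 4 was called with median-of-ratios scaling (adjusted p from 0.120 to 0.478, limma). The same held when obese replicate 1, 2 or 3 or weight-cycled replicate 2, 3 or 4 was left out. In each of those leave-out fits at most 22 of all 8127 tested genes were called higher and at most 49 lower. Krt18, Clu and Spp1 had log2 fold changes of -0.09, 0.15 and 0.52 (adjusted p from 0.0615 to 0.521).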

How the data were processed

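Gene-level TPM of 8 islet libraries were deposited by the authors. Salmon 1.5.2 and build mm10 are named in the submitters' processing notes, and the annotation and the step from transcripts to genes were not given in the sources used here. Columns summed to 999930 to 999949 TPM, so depth is unknown, and no counting interval was given. Lengths, coordinates and shared 31-base words came from GENCODE M21 on GRCm38, and 35527 of 35596 gene IDs had a symbol.

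The members and lists were chosen with earlier results of these data known. Genes with a mean of at least 1 TPM were tested with limma 3.58.1 (R 4.3.3; lmFit, eBayes with trend) on log2(TPM + 1) without covariates; p-values are two-sided and adjusted after Benjamini and Hochberg over all genes tested, with calls at 0.05. Fold changes (weight-cycled minus obese) are on that log2 scale and are compressed for low genes. Sums and shares have no test.

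Genes were named by rule: each library's value for members of at least 50 TPM, Reg genes and transcription factors, and up to 6 genes with the largest mean TPM of the other acinar, Reg signalling and duct lists; others are marked where named, and 1 gene that the rule takes is not reported here. Alternatives were pseudocounts of 0.1 and 5, no filter or a mean of at least 5 TPM, median-of-ratios scaling, rescaling without insulin genes and members, removing a loess trend (span 0.5) with transcript length from every library, the replicate number as a block, no variance trend, and leaving out each library. The enzyme-sum covariate, unlisted amylase and trypsin genes and the repeat of counts without weight-cycled replicate 1 were chosen after seeing the data.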

Additional observations from a re-analysis of the deposited data

Results flagged for a closer look

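In groups of 4 libraries, 118 sets of values (members, sums and shares) were examined for a library whose gap to its nearest neighbour exceeded Dixon's 95% critical value for 4 values. Chance gives about 5.9 such sets if they are independent, which these are not, since enzyme genes vary together; 20 were found, 14 of them in weight-cycled replicate 1.

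Weight-cycled replicate 1 stood above its group for the enzyme sum (1.09% of TPM, others 0.463% to 0.543%) and for 13 genes. Among proteases it had Ctrb1 at 1970 TPM (others 665 to 805), Cela2a at 1357 (728 to 808), Ctrl at 391 (140 to 172), Cpa1 at 347 (129 to 149) and Cpb1 at 228 TPM (107 to 123). Among lipid-digesting genes it had Pnlip at 619 TPM (241 to 279), Clps at 619 (269 to 300.2), Cel at 497 (147 to 199), Pnliprp1 at 195 (72.5 to 82.0) and Pnliprp2 at 28.7 TPM (9.53 to 10.8). The other genes were Sycn at 330 TPM (89.5 to 116), Rnase1 at 198 (71.6 to 92.1) and Klk1 at 20.7 TPM (5.20 to 6.94).

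Obese replicate 3 stood below its group for Cela2a, at 498 TPM (others 795 to 843), and Zg16, at 61.7 TPM (105 to 112). Obese replicate 1 stood above its group for Reg2, at 15.5 TPM (1.48 to 1.87), Reg3a, at 1.13 TPM (0.0738 to 0.155), and Reg3d, at 2.81 TPM (0.726 to 1.04). Weight-cycled replicate 2 had the highest share of the enzyme sum for Try4, 6.77% (5.78% to 5.94%), a gene that shares 82.7% of its words with other genes.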

How the results depend on the processing

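The count of members called was 0 in both directions with all 8 libraries and the settings above. It rose to 1 higher with median-of-ratios scaling. With the log2 enzyme sum as a covariate (chosen after seeing the data) it rose to 4 higher and 5 lower. That covariate is the sum of the enzyme members themselves, so calls and signs of enzyme genes in that fit are in part built in. Leaving out 1 library at a time gave 0 to 1 higher and 0 to 2 lower. Of all genes tested, 2044 were called; no filter gave 0 (5686 of 19482 at an unadjusted p under 0.05), a mean of at least 5 TPM 1080, median-of-ratios scaling 147, rescaling without insulin and members 78, removal of the length trend 291, the enzyme-sum covariate 4327 and leaving out 1 library 0 to 4711. The replicate number as a block gave 5 members higher (Reg1, Reg2, Reg3b, Ctrc and Try10), 0 lower and 2903 genes in all. Correlations of deviations from the group mean ran from -0.28 to 0.23 for the same number and from -0.34 to 0.31 for different numbers. The labels do not say whether the numbers pair samples, and so few correlations cannot decide it.

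Of the 31 log2 fold changes of members, 15 kept their sign in every fit and 16 turned in at least 1. With median-of-ratios scaling Cpa1 turned to 0.28, Ctrl to 0.31, Pnlip to 0.32, Cel to 0.30, Sycn to 0.0588, Klk1 to 0.15 and Bhlha15 to 0.17. With the length trend removed Cpa1 turned to 0.16, Ctrl to 0.13, Pnlip to 0.14, Cel to 0.23, Klk1 to 0.00110 and Bhlha15 to 0.25. With the enzyme-sum covariate Ctrb1 turned to -0.18, Pnliprp1 to -0.0810, Pnliprp2 to -0.21, Clps to -0.0290, Rnase1 to -0.16, Gp2 to -0.16, Cuzd1 to -0.16 and Pla2g1b to -0.0826; Cuzd1 also turned to -0.00834 with a pseudocount of 0.1. With rescaling without insulin and members Pnlip turned to 0.00217. The cause was not tested, and the enzyme-sum covariate includes the TPM of the enzyme genes that turned in that fit. Leaving out 1 library at a time gave ranges of -0.38 to 0.10 for Cpa1, -0.31 to 0.21 for Ctrb1, -0.35 to 0.15 for Ctrl, -0.0383 to 0.35 for Prss2, -0.33 to 0.12 for Pnlip, -0.19 to 0.30 for Pnliprp1, -0.33 to 0.17 for Pnliprp2, -0.40 to 0.18 for Cel, -0.11 to 0.29 for Clps, -0.28 to 0.21 for Rnase1, -0.23 to 0.20 for Gp2, -0.24 to 0.14 for Cuzd1, -0.56 to 0.0449 for Klk1, -0.17 to 0.29 for Pla2g1b and -0.16 to 0.0709 for Bhlha15.

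The Reg sum was 0.70 higher on the log2 scale in weight-cycled libraries (0.37 to 1.002 without 1 library) and 1.70 without Reg1; the ratio of Reg to enzymes was 0.50 higher (0.31 to 0.72) and 1.48 without Reg1 and Ctrb1. The enzyme sum was 0.20 higher (-0.08 to 0.33). With TPM the depth is unknown, so differences of Rbpjl, Ptf1a, Nr5a2 and Reg3a cannot be set against counting error.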
